A study of Homo sapiens with 9 samples.

Results

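The genes described here are the nuclear-encoded parts of respiratory complexes II to V of the mitochondrial inner membrane, with cytochrome c and the assembly factors whose symbols begin with COX. They were taken from the deposited count table by symbol: SDHA, SDHB, SDHC, SDHD, CYC1, CYCS and every symbol that begins with UQCR, COX and a digit, ATP5F1, ATP5M, ATP5P or ATP5IF1. Of the 162 symbols with these beginnings, 100 with pseudogene names and 2 with a hyphen were left out, so that 60 genes of 60591 symbols remained. They comprise 4 genes of complex II, 11 of complex III with cytochrome c, 17 subunit genes of complex IV, 9 COX-named assembly factors of complex IV and 19 genes of complex V. Messenger RNA was measured in uCaco-2, the undifferentiated, proliferating state of a human colon adenocarcinoma line, in 3 libraries per condition. Control cells received fresh medium, CoCl2 cells received 300 μM CoCl2, and OD cells received 5 μM of an oxyquinoline derivative. The 24 h exposure and 0.5% DMSO, as stated, were common to all 9 cultures. CoCl2 and OD are both used as chemical activators of the hypoxia-inducible factor (HIF) pathway, and the study asked how intestinal epithelial cells respond to them. All cultures come from 1 line at 1 time and at 1 dose per agent.

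Complex II (succinate dehydrogenase) passes electrons from succinate to ubiquinone. Complex III passes them from ubiquinone to cytochrome c, complex IV (cytochrome c oxidase) passes them on to oxygen, and complex V (ATP synthase) uses the proton gradient to make ATP. Complex II is built from nuclear-encoded proteins only, whereas complexes III, IV and V each also hold subunits encoded in mitochondrial DNA. HIF is known to divert metabolism from respiration to glycolysis, among others through PDK1, BNIP3 and MXI1, and in hypoxia COX4I2 is known to replace COX4I1 in complex IV of some cells.

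The libraries held 15998136 to 18298190 counts in control cells, 16286502 to 24209427 under CoCl2 and 16387054 to 19623776 under OD. The epithelial markers EPCAM, KRT8, KRT18, KRT19 and CDH1 each had at least 12522 counts in every library, and CDX2 had 786 to 1507. VIL1 (villin) had 10633 to 12428 counts in control cells, 1397 to 2277 under CoCl2 and 8640 to 10087 under OD. KRT20 had 76 to 92, 17 to 37 and 109 to 132 counts in the same order. Among markers of leukocytes, endothelium and fibroblasts, PTPRC, COL1A2 and DCN stayed between 0 and 3 counts, CD3E, CDH5 and VWF between 0 and 20, and PECAM1 and CD14 between 20 and 101. COL1A1 had 238 to 308 counts in control cells, 135 to 208 under CoCl2 and 420 to 480 under OD, and PDGFRA had 1038 to 1928 over all libraries. Their part in the results was not tested. Levels are given below as CPM, read counts set against the library total after its correction by TMM, edgeR's factor for library composition. The TMM factors were 1.11 to 1.12 in control cells, 0.77 to 0.795 under CoCl2 and 1.14 to 1.15 under OD. This difference matters for every direction given for CoCl2. With library size alone, the median log2 fold change of all 15944 tested genes under CoCl2 moved from -0.05 to -0.55. In bulk libraries, fewer cells of a kind and less RNA per cell cannot be told apart.

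A gene is said here to have risen or fallen when its adjusted p was under 0.05 (edgeR quasi-likelihood test, Benjamini-Hochberg adjustment over all tested genes), and is said to be called when its log2 fold change was also above 1 in size, the threshold of the study. Of the 60 genes, 53 passed the filter on low counts. Under CoCl2, 5 of the 53 were called lower and 0 higher, against 23.4% of all tested genes called lower and 19.9% called higher. The 5 were ATP5MC1 and ATP5MC3 of the c ring of complex V, CYC1 of complex III, and the complex IV assembly factors COX11 and COX18. ATP5MC3 (-1.02), CYC1 (-1.05) and COX11 (-1.11) lay near the threshold. With glmTreat, edgeR's test against the threshold itself, 2 genes were called lower. Under OD, 0 genes were called in either direction, against 4.16% of all tested genes lower and 9.09% higher. DESeq2 called the same number lower under CoCl2 and 0 in either direction under OD, and called 1 gene higher under CoCl2, COX7A1, which had failed the filter.

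By the adjusted p alone, 28 of the 53 fell and 17 rose under CoCl2, against 42.8% and 40.4% of all tested genes. Taken in both directions, the share of these genes that changed under CoCl2 was near the background. Under OD, 37 fell and 2 rose, against 33.3% and 32.3% of all tested genes. The 2 that rose were SDHA and COX7A2L. The median log2 fold change of the 53 genes was -0.27 under OD, beside -0.01 for all tested genes, and -0.22 under CoCl2, beside -0.05. Single changes under OD were small and ranged from -0.66 (ATP5MC1) to 0.25 (COX7A2L), and those under CoCl2 ranged from -2.06 (ATP5MC1) to 0.84 (COX16). Scaled by library size alone, 44 genes fell and 2 (COX6A1 and COX10) rose under CoCl2, and 33 fell and 2 rose under OD.

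**Figure D1:**
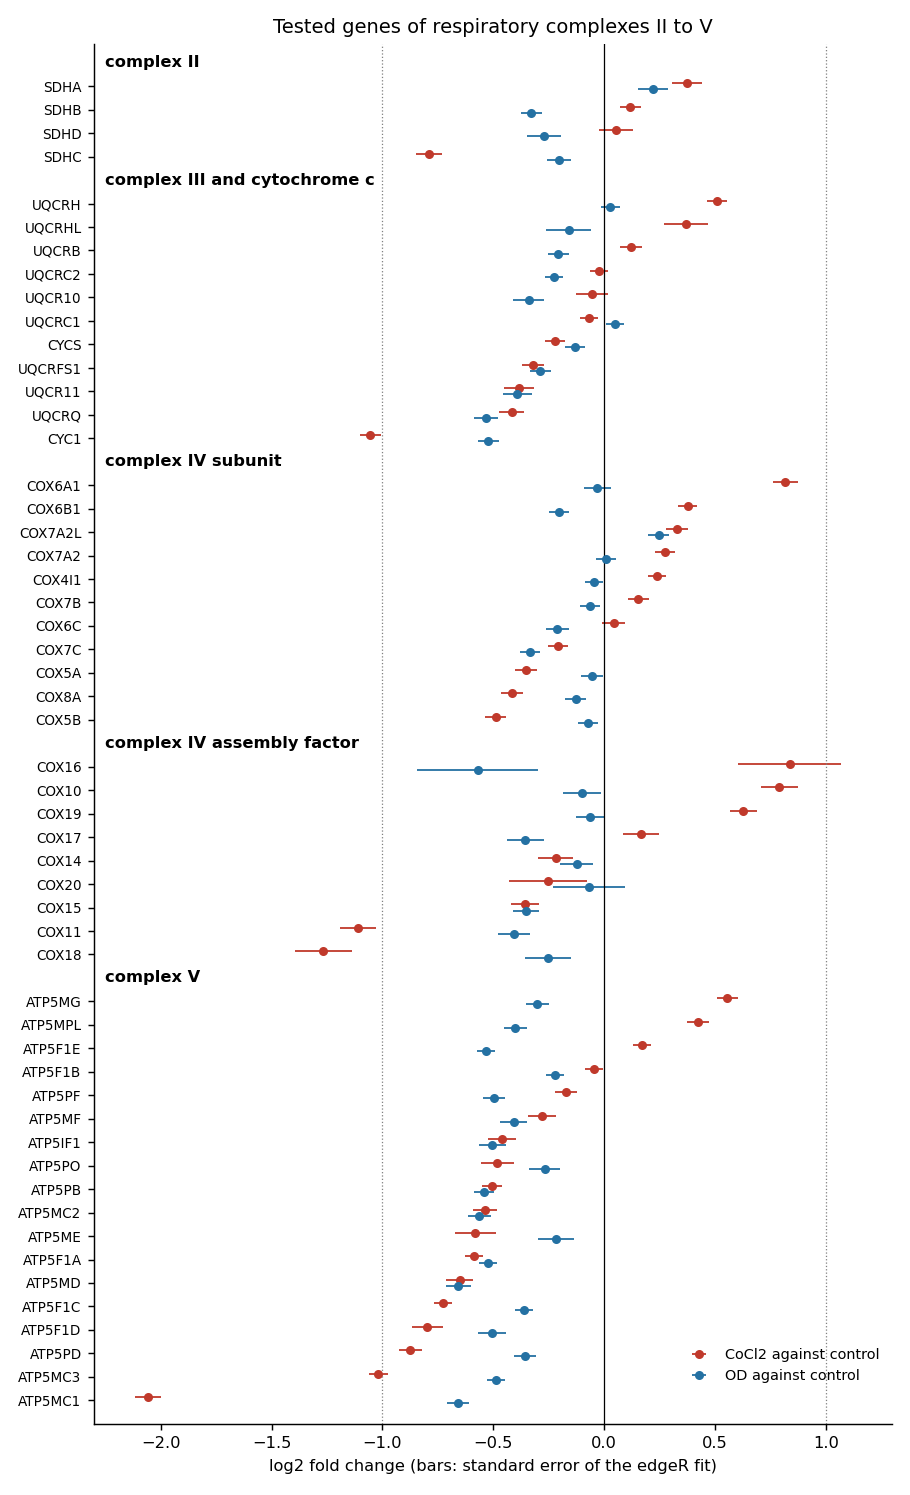
Log2 fold change against control (x axis, TMM scaling) of the 53 tested genes, grouped by complex and ordered by the change under CoCl2 (red) beside the change under OD (blue); bars are standard errors of the edgeR fit over 3 libraries per condition, and dotted lines mark -1 and 1. All 18 blue points of complex V lie below 0, the red points spread from -2.06 to 0.84, and with library size alone most red points right of 0 move to its left.

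The promoters of 4 of these genes are shown because they carry the contrasts described below: ATP5MC1 fell most, ATP5MC2 encodes the same mature protein and fell less, COX6A1 had the largest rise of a complex IV subunit, and ATP5PF shares its promoter region with GABPA, a gene that moved the other way under CoCl2. The 250 bases before each RefSeq start (GRCh38.p14) were printed 5′ to 3′ on the gene's strand, and for ATP5MC2 and ATP5PF the first of 3 and of 2 listed windows was taken. Capitals mark matches on either strand to 5 letter patterns, GCGCA with any base and GCGC after it (nuclear respiratory factor NRF1), CCGGAAG (ETS factors, among them GABPA), AAGATGGC (YY1), ACGTG (the core of the HIF element) and GGGCGG (GC box).
ATP5MC1, chr17:48892537-48892786, plus strand: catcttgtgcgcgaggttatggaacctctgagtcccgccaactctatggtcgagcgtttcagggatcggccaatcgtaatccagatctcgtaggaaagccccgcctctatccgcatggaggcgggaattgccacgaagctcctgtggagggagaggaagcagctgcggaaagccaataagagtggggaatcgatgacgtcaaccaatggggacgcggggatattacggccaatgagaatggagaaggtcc
ATP5MC2, chr12:53676084-53676333, minus strand: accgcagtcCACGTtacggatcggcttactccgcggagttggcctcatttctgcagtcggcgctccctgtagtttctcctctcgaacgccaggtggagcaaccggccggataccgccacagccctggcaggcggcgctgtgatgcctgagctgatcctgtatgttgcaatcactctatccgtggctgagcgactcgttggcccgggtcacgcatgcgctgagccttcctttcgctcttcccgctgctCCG
COX6A1, chr12:120437863-120438112, plus strand: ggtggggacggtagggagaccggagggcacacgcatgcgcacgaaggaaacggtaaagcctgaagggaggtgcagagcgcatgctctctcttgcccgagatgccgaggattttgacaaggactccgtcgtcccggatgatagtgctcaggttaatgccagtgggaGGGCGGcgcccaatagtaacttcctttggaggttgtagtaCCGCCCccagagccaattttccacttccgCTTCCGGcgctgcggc
ATP5PF, chr21:25735055-25735304, minus strand: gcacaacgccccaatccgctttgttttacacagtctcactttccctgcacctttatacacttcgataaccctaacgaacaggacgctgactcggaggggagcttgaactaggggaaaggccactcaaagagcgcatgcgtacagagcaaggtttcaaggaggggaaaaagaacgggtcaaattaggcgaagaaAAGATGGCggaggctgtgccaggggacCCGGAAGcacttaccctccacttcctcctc

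The ATP5MC1 stretch held none of the 5 patterns, and its ACGTG match lay at bases 4 to 9 after the start, on both strands as CACGTG is its own reverse complement. The ATP5MC2 stretch held ACGTG read on the other strand, 241 bases before the start, and its last 3 bases belong to a GC box that runs past the start. The COX6A1 stretch held 2 GC boxes and 1 ETS pattern, the latter 16 bases before the start. The ATP5PF stretch held 1 YY1 and 1 ETS pattern, 57 and 30 bases before the start. On chromosome 21, its 2 listed starts at 25735054 and 25734904 (minus strand) lie on either side of the GABPA start at 25734972 (plus strand).

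RefSeq windows of 300 bases (250 before to 50 after the start) were found for 47 of the 60 genes, of which 43 were tested. A match in any listed window of a gene was counted, so genes with more listed starts had more sequence searched. The shares below were not corrected for this. NRF1 letters were in 12 of these 43 genes (27.9%) and in 12.7% of the 10907 tested genes with an entry. ETS letters were in 20 (46.5%) against 21.4%, and YY1 letters in 6 (14.0%) against 6.23%. ACGTG was in 12 (27.9%) against 32.0% and the GC box in 28 (65.1%) against 75.7%. None of the 10 tested complex IV subunit genes with an entry held the NRF1 letters, beside 4 of 8 tested genes of complex III with cytochrome c and 4 of 14 of complex V. These matches are a description of letters in a window and were not tested.

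Of the 4 genes of complex II, 2 rose and 1 fell under CoCl2, against 40.4% and 42.8% of all tested genes. Under OD 1 rose and 3 fell, against 32.3% and 33.3%. SDHA, the flavoprotein that oxidises succinate (chromosome 5, 218303 to 257082, plus strand), was at 24.1, 22.2 and 23.4 CPM in control cells, 31.8, 28.5 and 29.7 under CoCl2 and 27.6, 26.9 and 26.8 under OD. Both treated groups lay above all control libraries, with log2 fold changes of 0.37 ± 0.07 (SE, edgeR adjusted p = 1.90e-06) and 0.22 ± 0.07 (edgeR adjusted p = 0.00309). The rise under CoCl2 turned to -0.13 with library size alone. SDHA counts are uncertain, because the rows of its 3 pseudogenes held 69.8% as many counts as SDHA in control cells, 69.1% under CoCl2 and 81.2% under OD, and because 69.4% of its exonic bases are shared with another annotated gene on the same strand. Over 20% of the exonic bases were shared with an annotated neighbour on either strand for 15 of the 60 genes, most for COX20 (95.7%), SDHA and ATP5PO (63.8%).

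SDHC, one of the pair of membrane anchors (chromosome 1, 161314381 to 161363206, plus strand), went the other way. It was at 90.2, 84.9 and 74.4 CPM in control cells, 47.7, 47.5 and 49.03 under CoCl2 and 74.2, 69.5 and 73.0 under OD. It fell by 0.79 ± 0.06 (SE) under CoCl2 and by 0.20 ± 0.05 under OD on the log2 scale, and all CoCl2 libraries lay below all others. The iron-sulfur subunit SDHB rose by 0.12 ± 0.05 under CoCl2 and fell by 0.33 ± 0.05 under OD on the log2 scale, with 87.85 to 95.01 CPM in control cells, 97.2 to 99.7 under CoCl2 and 70.7 to 74.5 under OD. The small rise of SDHB under CoCl2 did not pass the test without control replicate 2 or 3 (0.09 and 0.10), without a count filter or on the 6 libraries alone, and turned to -0.39 with library size alone. The second anchor, SDHD, had a change of 0.05 ± 0.08 under CoCl2 that did not pass the test, but passed it without control replicate 2 (0.14), and fell by 0.27 ± 0.08 under OD.

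In complex III, CYC1, cytochrome c1 (chromosome 8, 144095039 to 144097525, plus strand), had the largest change under CoCl2. Its level was 140, 134 and 132 CPM in control cells, 66.5, 62.3 and 66.4 under CoCl2 and 98.1, 94.0 and 90.5 under OD. The 3 groups did not overlap, with log2 fold changes of -1.05 ± 0.05 (SE, edgeR adjusted p = 3.29e-29) for CoCl2 and -0.52 ± 0.05 (edgeR adjusted p = 1.31e-15) for OD. The Rieske iron-sulfur subunit UQCRFS1 fell by 0.32 ± 0.05 under CoCl2 and by 0.29 ± 0.05 under OD. The 2 core proteins differed from it: UQCRC1 passed the test in neither comparison with control (-0.07 and 0.05), and UQCRC2 had -0.02 under CoCl2 and fell by 0.22 ± 0.04 under OD.

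Among the small subunits of complex III, UQCRQ fell most under OD. It had 74.0 to 81.6 CPM in control cells, 54.1 to 60.8 under CoCl2 and 49.95 to 54.95 under OD, with log2 fold changes of -0.42 ± 0.06 and -0.53 ± 0.05. UQCRH, the hinge protein at the cytochrome c side, was at 126, 119 and 119 CPM in control cells, 177, 173 and 168 under CoCl2 and 126, 125 and 120 under OD. It rose under CoCl2 by 0.51 ± 0.04 on the log2 scale and its change of 0.03 under OD did not pass the test. UQCRHL, a single-exon copy of UQCRH with 8.15 to 13.7 CPM over all libraries, rose by 0.37 ± 0.10 under CoCl2. How reads that fit both genes were counted is not given in the sources used here. UQCRHL turned to -0.14 with library size alone, and the change of UQCRH under CoCl2 then stood at 0.0041 and did not pass the test.

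Cytochrome c itself, CYCS, moved little. It was at 163, 175 and 164 CPM in control cells, 148, 149 and 134 under CoCl2 and 157, 156 and 145 under OD, a log2 fold change of -0.22 ± 0.05 and -0.13 ± 0.04 (SE). The fall under OD did not pass the test with library size alone (-0.09), without control replicate 2 (-0.10) or without OD replicate 3 (-0.09). In all, 5 of the 11 genes of complex III with cytochrome c fell and 3 rose under CoCl2, and 8 fell and 0 rose under OD. Of all tested genes, 42.8% fell and 40.4% rose under CoCl2 and 33.3% and 32.3% under OD, so the counts under CoCl2 were near or below these shares.

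The nuclear subunits of complex IV had the smallest median change of the 5 groups under OD. Of 11 tested subunit genes, 4 fell and 1 rose under OD (median -0.06), and 4 fell and 6 rose under CoCl2 (median 0.15). The shares of all tested genes were 33.3% lower and 32.3% higher under OD and 42.8% lower and 40.4% higher under CoCl2, so that the 4 that fell were near the background in both. Under library size alone the latter became 10 lower and 1 higher. Relative to the median of all tested genes, the median of these subunits under CoCl2 lay 0.20 higher.

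COX6A1 (chromosome 12, 120438090 to 120440737, plus strand), the form of subunit VIa found outside muscle, had the largest rise of these subunits. It was at 44.3, 38.1 and 39.6 CPM in control cells, 72.6, 72.9 and 69.6 under CoCl2 and 41.9, 39.5 and 37.9 under OD. Its log2 fold change was 0.82 ± 0.06 under CoCl2 (SE, edgeR adjusted p = 2.03e-20), still 0.31 with library size alone, and -0.03 ± 0.06 under OD. COX6A1 shares 32.6% of its exonic bases with another annotated gene on the same strand. COX6B1, at the cytochrome c docking side, went from 180 to 206 CPM in control cells to 249 to 253 under CoCl2 and to 156 to 174 under OD. It rose by 0.38 ± 0.04 under CoCl2 and fell by 0.20 ± 0.04 under OD on the log2 scale, the first turning to -0.13 with library size alone. COX4I1, COX7A2, COX7A2L and COX7B also rose under CoCl2, by 0.24, 0.27, 0.33 and 0.15, and all 4 were below 0 with library size alone. The rise of COX7B did not pass the test without control replicate 2 (0.09).

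Other subunits of complex IV fell under CoCl2. COX5B, a zinc-binding subunit, was at 144, 136 and 137 CPM in control cells, 94.5, 101 and 101 under CoCl2 and 136, 135 and 124 under OD. Its log2 fold change was -0.49 ± 0.05 under CoCl2 and -0.08 ± 0.05 under OD, the latter not passing the test. COX8A and COX5A fell by 0.42 and 0.35 under CoCl2. COX8A shares 35.4% of its exonic bases with another annotated gene on the same strand. COX7C fell most under OD, from 171 to 192 CPM in control cells to 139 to 149, a log2 fold change of -0.34 ± 0.04. COX7A2L, which is known for its part in respiratory supercomplexes, rose with both agents, from 82.0, 83.3 and 82.2 CPM to 102, 105 and 104 under CoCl2 and 99.9, 100 and 92.9 under OD.

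The tissue-restricted forms of complex IV subunits were at or near 0. COX4I2 had 1 count, in OD replicate 3, and 0 in the other 8 libraries, whereas COX4I1 had 6897 to 11064 counts. A count of 0 allowed COX4I2 at most 0.0435% of the reads of the pair, so no switch from COX4I1 to COX4I2 mRNA was seen. COX6A2 and COX7B2 had 0 counts in every library, and COX8C had 1 count in 1 CoCl2 library. COX7A1, the muscle form of subunit VIIa, had 0 to 1 counts in control cells, 5 to 9 under CoCl2 and 0 to 1 under OD, and COX6B2 had 1 to 2, 5 to 7 and 1 to 3. Both failed the filter on low counts, as did ATP5MGL of complex V with 1 to 5 counts, and no test was read for them. Without the filter edgeR called COX7A1 and COX6B2 higher under CoCl2 than in control cells and than under OD, and DESeq2 called COX7A1 higher in both. These names were chosen after their values were seen, and the fitted changes rest on at most 9 counts per library.

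Of the 9 COX-named assembly factors of complex IV, 4 fell and 3 rose under CoCl2, against 42.8% and 40.4% of all tested genes. These counts were near the background. Under OD 4 fell and 0 rose, against 33.3% and 32.3%. COX11, which delivers copper to the catalytic subunit (chromosome 17, 54951902 to 54968703, minus strand), was at 26.9, 33.6 and 33.3 CPM in control cells, 14.7, 15.1 and 13.9 under CoCl2 and 24.9, 24.2 and 21.4 under OD. COX18, which inserts part of the mitochondrially encoded COX2 into the membrane (chromosome 4, 73052362 to 73069755, minus strand), was at 9.15, 10.1 and 9.20 CPM in control cells, 3.67, 3.33 and 4.62 under CoCl2 and 8.45, 7.99 and 7.40 under OD. The log2 fold changes under CoCl2 were -1.11 ± 0.08 and -1.27 ± 0.13 (SE). Under OD they were -0.41 ± 0.07 and -0.25 ± 0.10, and the second did not pass the test with DESeq2, with library size alone or without a count filter. COX11 shares 24.9% of its exonic bases with TOM1L1 on the opposite strand.

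COX10, COX19 and COX16 rose under CoCl2, and none of the 3 passed the test under OD. COX10, which makes heme O, the precursor of heme A, was at 14.2, 12.01 and 13.35 CPM in control cells, 22.2, 24.4 and 21.9 under CoCl2 and 12.6, 12.1 and 12.1 under OD, and rose by 0.79 ± 0.08 on the log2 scale under CoCl2. COX19, a small copper-linked protein, rose by 0.63 ± 0.06. COX16 rests on 12 to 47 counts per library, with 22, 26 and 24 counts in control cells, 29, 33 and 47 under CoCl2 and 24, 18 and 12 under OD. Annotated neighbours overlap 37.3% of its exonic sequence, among them a read-through gene of SYNJ2BP and COX16 on the same strand. Its change under CoCl2 was 0.84 ± 0.23 and its change under OD of -0.57 ± 0.27 did not pass the test, but passed it without OD replicate 1 (-0.80). COX15, the enzyme that follows COX10, fell by 0.36 ± 0.06 and 0.35 ± 0.06. With library size alone, COX16 (0.33) and COX19 (0.12) did not pass the test under CoCl2, and COX10 did (0.28).

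Complex V had the lowest median of the 5 groups with both agents. Under OD all 18 tested genes fell, with a median of -0.49 and single values between -0.66 and -0.22, while the share of all tested genes that fell was 33.3%. Under CoCl2, 14 fell and 3 rose, with a median of -0.52, against 42.8% and 40.4% of all tested genes. Both counts held over the alternatives tried, between 17 and 18 under OD and between 14 and 16 under CoCl2. Relative to the median of all tested genes, the complex V median lay at -0.48 under OD and -0.47 under CoCl2. ATP5ME was the gene that did not pass under OD with DESeq2, with library size alone, without control replicate 1 or without OD replicate 3.

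**Figure D2:**
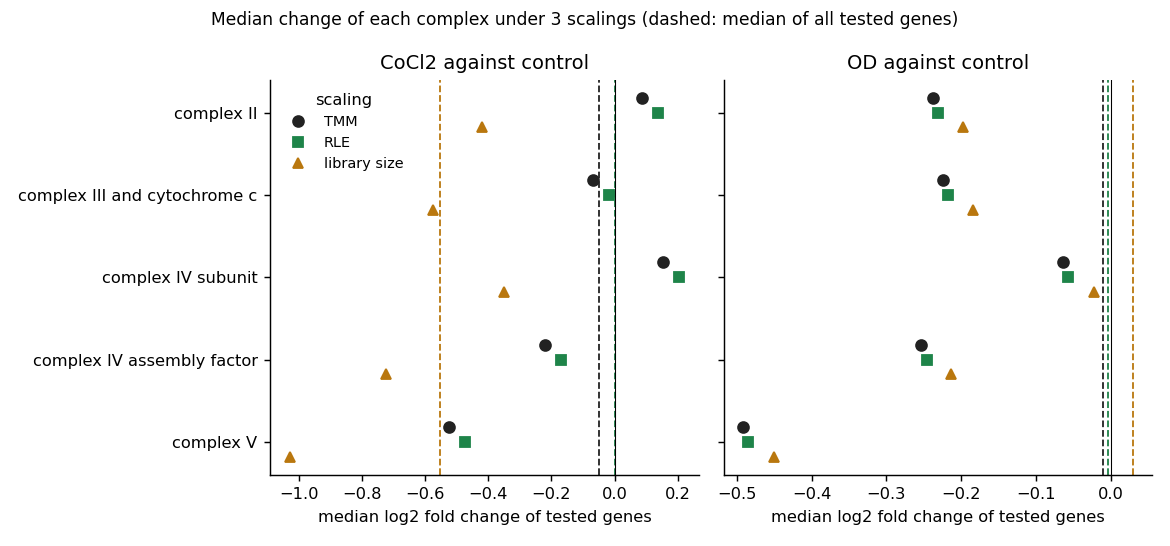
Median log2 fold change of the tested genes of each group (x axis) under TMM, RLE and library-size scaling, with dashed lines at the median of all tested genes under the same scaling. Under CoCl2 (left) library size alone moves the dashed line from -0.05 to -0.55 and, as a scaling shifts all genes by about the same amount, all groups with it; complex V lies left of the line in both panels.

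In the F1 head, which holds the catalytic sites, ATP5F1A (alpha) was at 626, 593 and 560 CPM in control cells, 393, 390 and 402 under CoCl2 and 413, 406 and 417 under OD. The catalytic beta subunit ATP5F1B was at 1194, 1128 and 1084 CPM in control cells, 1111, 1069 and 1115 under CoCl2 and 1003, 971 and 946 under OD. The alpha gene fell by 0.59 ± 0.04 under CoCl2 and by 0.52 ± 0.04 under OD on the log2 scale, whereas the beta gene had -0.05 ± 0.04 under CoCl2, which did not pass the test, and fell by 0.22 ± 0.04 under OD. The gamma and delta subunits of the rotor, ATP5F1C and ATP5F1D, fell by 0.73 and 0.80 under CoCl2 and by 0.36 and 0.51 under OD. The epsilon subunit ATP5F1E was at 414, 369 and 383 CPM in control cells, 448, 447 and 418 under CoCl2 and 262, 275 and 269 under OD, a rise of 0.17 ± 0.04, which turned to -0.33 with library size alone, and a fall of 0.53 ± 0.04. ATP5F1E shares 32.7% of its exonic bases with TUBB1 on the opposite strand, and the strand setting of the counting is not given in the sources used here.

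The c ring, which turns as protons pass, is built from 1 mature protein encoded by 3 genes that differ in their import sequence. ATP5MC1 (chromosome 17, 48892765 to 48895871, plus strand) was at 112, 107 and 112 CPM in control cells, 24.8, 26.1 and 28.2 under CoCl2 and 68.8, 73.4 and 66.5 under OD. The 3 groups were far apart, and the log2 fold changes were -2.06 ± 0.06 (SE, edgeR adjusted p = 7.14e-41) under CoCl2 and -0.66 ± 0.05 (edgeR adjusted p = 1.63e-18) under OD. ATP5MC3 (chromosome 2, 175176258 to 175181710, minus strand) was at 284, 283 and 282 CPM in control cells, 139, 141 and 139 under CoCl2 and 207, 208 and 190 under OD. It fell by 1.02 ± 0.04 under CoCl2, a call that RLE size factors ended (-0.97), and by 0.49 ± 0.04 under OD. ATP5MC2 (chromosome 12, 53632726 to 53677408, minus strand) was at 77.5, 70.1 and 70.5 CPM in control cells, 48.8, 51.0 and 50.3 under CoCl2 and 50.04, 46.83 and 50.75 under OD. Its falls of 0.54 ± 0.06 and 0.56 ± 0.05 left the treated groups overlapping each other and below all control libraries.

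The mix of the 3 genes can be read within a library, where no scaling enters. ATP5MC1 gave 23.7, 23.2 and 24.1% of the reads of the 3 genes in control cells, 11.67, 11.98 and 12.96% under CoCl2 and 21.1, 22.4 and 21.6% under OD. Each of these shares rests on 2813 to 9376 reads, and its 95% exact interval spans from 10.6 to 14.0% over the CoCl2 libraries and from 22.4 to 25.0% over the control libraries. The mean share fell by 11.46 percentage points under CoCl2 and by 1.96 under OD, without overlap between either treatment and control. The two-sided exact permutation p was 0.1 for both, the smallest that 3 libraries against 3 can give. ATP5MC2 gave 16.4, 15.2 and 15.2% in control cells, 23.0, 23.4 and 23.1% under CoCl2 and 15.4, 14.3 and 16.5% under OD (exact permutation p = 0.1 and 1.0). ATP5MC3 gave 59.9, 61.5 and 60.7%, 65.3, 64.6 and 64.0%, and 63.5, 63.3 and 61.9% in the same order (exact permutation p = 0.1 for both). These are shares of reads and not of molecules, since the transcripts differ in length.

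**Figure D3:**
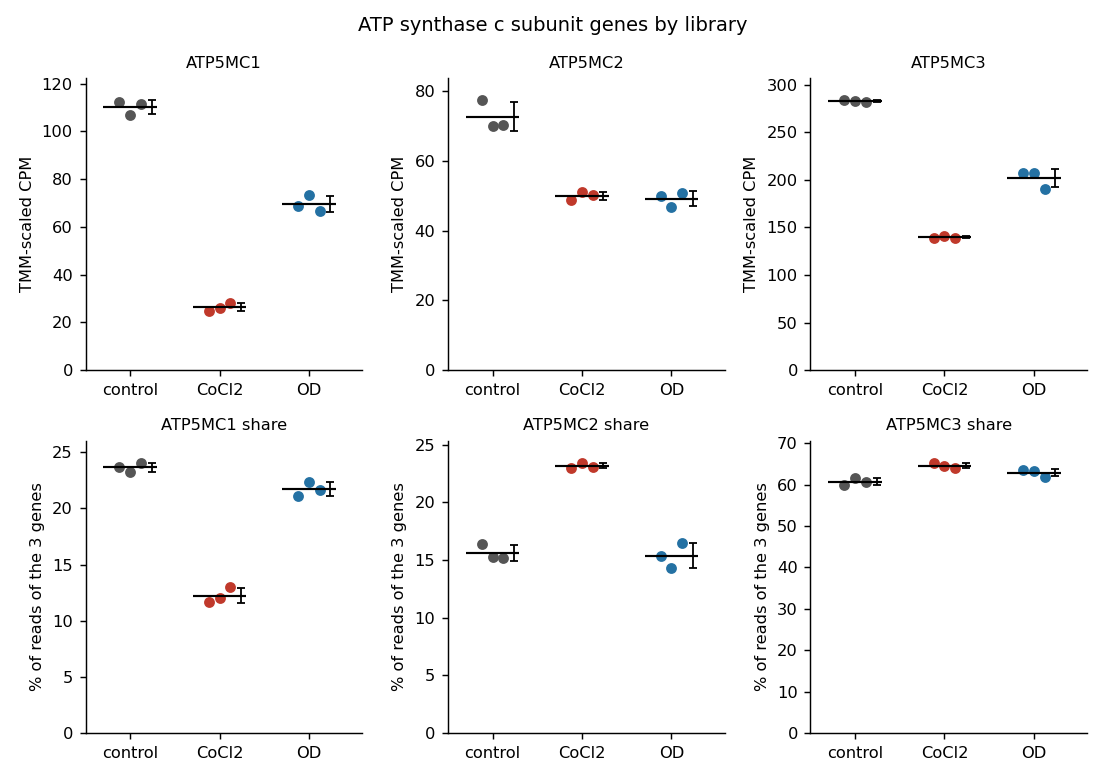
ATP5MC1, ATP5MC2 and ATP5MC3 in each of 9 libraries, as TMM-scaled CPM (top row) and as % of the reads of the 3 genes (bottom row); points are libraries, lines means and bars SD (n = 3). The ATP5MC1 share is 11.67 to 12.96% in the CoCl2 libraries and 21.1 to 24.1% in the others, and the CPM of all 3 genes are lower in every treated library than in every control library.

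The 4 genes of the peripheral stalk, which holds the F1 head against the rotor, fell with both agents. Under CoCl2 the log2 fold changes were -0.51 for ATP5PB (subunit b), -0.87 for ATP5PD (d), -0.17 for ATP5PF (F6) and -0.48 for ATP5PO, the oligomycin sensitivity-conferring protein. Under OD they were -0.54, -0.36, -0.50 and -0.27. ATP5PF was at 107, 98.7 and 104 CPM in control cells, 93.9, 92.4 and 88.5 under CoCl2 and 75.4, 68.1 and 76.0 under OD. Its neighbour GABPA, whose product binds the ETS pattern, was at 16.8, 17.8 and 16.1 CPM in control cells, 48.8, 46.6 and 43.8 under CoCl2 and 13.1, 13.4 and 13.3 under OD. GABPA rose by 1.45 ± 0.07 under CoCl2 and fell by 0.35 ± 0.08 under OD on the log2 scale, so the pair moved in opposite directions under CoCl2 and in the same direction under OD. The pair shares 9.89% of ATP5PF's exonic bases on opposite strands.

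Among the supernumerary subunits of the membrane part, ATP5MG (subunit g) and ATP5MPL rose under CoCl2 and fell under OD. With library size alone these rises did not pass the test (0.05 and -0.08). ATP5MG was at 76.0, 81.2 and 76.7 CPM in control cells, 116, 114 and 114 under CoCl2 and 64.3, 66.0 and 59.4 under OD, with log2 fold changes of 0.56 ± 0.05 and -0.30 ± 0.05. It shares 24.4% of its exonic bases with annotated neighbours, among them a gene on the same strand. ATP5MPL was at 72.1 to 78.4 CPM in control cells, 97.1 to 102 under CoCl2 and 54.7 to 57.7 under OD, with 0.42 ± 0.05 and -0.40 ± 0.05. The groups did not overlap for either gene. ATP5MD, ATP5ME and ATP5MF fell with both agents, by 0.65, 0.58 and 0.28 under CoCl2 and by 0.66, 0.22 and 0.41 under OD. Annotated neighbours overlap 39.6% of the exonic bases of ATP5ME and 37.2% of those of ATP5MF. ATP5IF1, the inhibitor that stops the enzyme from splitting ATP, was at 50.1, 42.8 and 51.3 CPM in control cells, 34.3, 34.6 and 35.5 under CoCl2 and 33.5, 33.6 and 34.4 under OD. It fell by 0.46 ± 0.06 and 0.50 ± 0.06.

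The summed level of all 60 genes was 7241 ± 202 CPM in control cells (SD, n = 3), 6500 ± 22.3 under CoCl2 and 5997 ± 120 under OD. Complex V accounted for most of the difference, with 3835 ± 120 CPM in control cells, 80.6% of that under CoCl2 and 76.0% under OD. The complex IV subunits stood at 107% of control under CoCl2 and 93.9% under OD. Such sums weigh each gene by its reads and are not counts of complexes. As a share of all counts, which is the same as scaling by library size alone, the 60 genes took 0.793 to 0.827% in control cells, 0.501 to 0.514% under CoCl2 and 0.673 to 0.694% under OD.

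The mitochondrially encoded partners of complexes III to V rose under CoCl2, where 28 of the 53 tested nuclear genes fell and 17 rose. Under OD these partners fell, as did 37 of the 53. The summed level of MT-CYB, MT-CO1, MT-CO2, MT-CO3, MT-ATP6 and MT-ATP8 was 28760, 27070 and 27700 CPM in control cells, 43750, 41140 and 40800 under CoCl2 and 14920, 14890 and 14650 under OD. All 6 rose under CoCl2, by 0.37 (MT-CO3) to 0.91 (MT-CYB), and all 6 fell under OD, by 0.67 (MT-CO1) to 1.36 (MT-CO3). Of all tested genes, 40.4% rose under CoCl2 and 33.3% fell under OD. Scaled by library size alone, MT-CO3 fell under CoCl2 (-0.14), MT-ATP8 (-0.07) did not pass the test, and the other 4 still rose, by 0.08 (MT-CO1) to 0.40 (MT-CYB). Under OD 3 of the 6 were called lower, against 4.16% of all tested genes. The libraries were made by poly(A) selection, and the part that this has in the mitochondrial values was not tested.

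**Figure D4:**
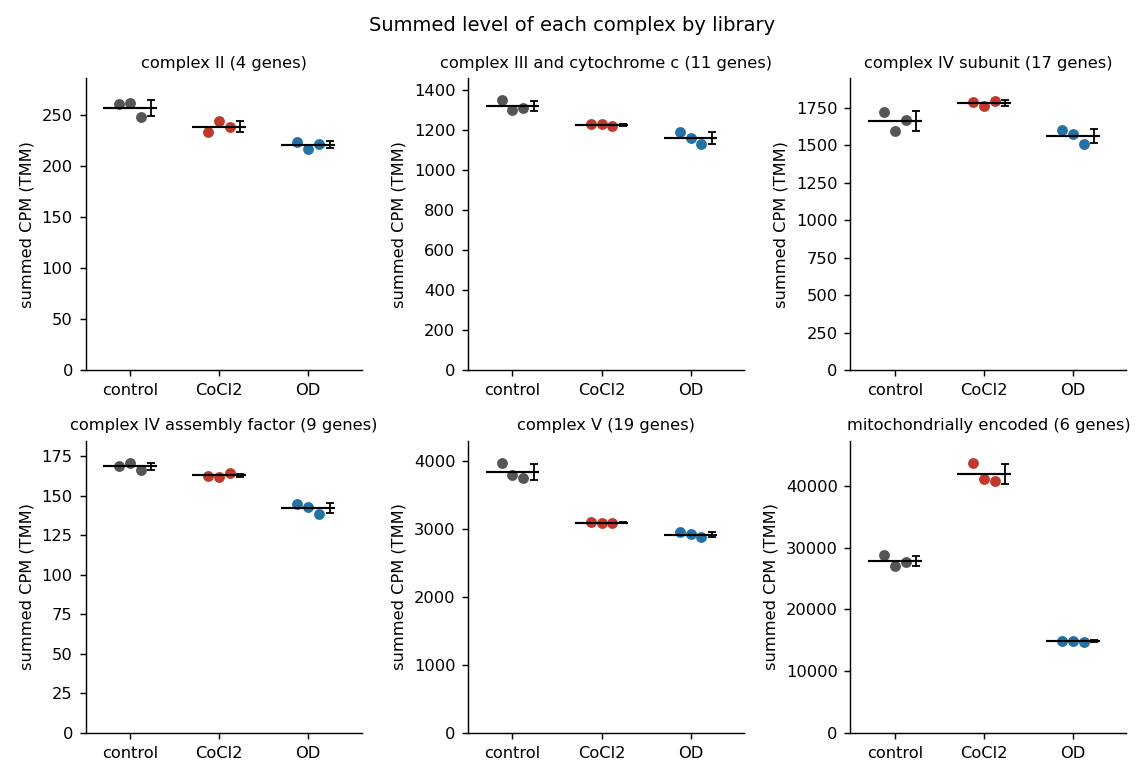
Summed TMM-scaled CPM of each group of nuclear genes and of 6 mitochondrially encoded partners in each of 9 libraries; points are libraries, lines means and bars SD (n = 3). Complex V is lower in all treated libraries than in the control libraries (means 3835, 3091 and 2915 CPM), while the mitochondrially encoded sum is highest under CoCl2 and lowest under OD.

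CoCl2 and OD were also compared directly, at their different doses. Of the 53 genes, COX16 was called higher under CoCl2 than under OD (1.41 ± 0.25, SE), and ATP5MC1 (-1.40 ± 0.06) and COX18 (-1.01 ± 0.13) were called lower, against 17.5% of all tested genes higher and 23.8% lower. The COX18 call lies at the threshold and was lost without CoCl2 replicate 1 (-0.96), CoCl2 replicate 2 (-0.93) or OD replicate 1 (-0.97), and with RLE size factors (-0.97). By the adjusted p alone 24 genes were higher and 15 lower under CoCl2, against 40.2% and 43.2% of all tested genes. Genes that were higher under CoCl2 by 0.70 or more were ATP5MG (0.86), COX10 (0.89), COX6A1 (0.85), ATP5MPL (0.82) and ATP5F1E (0.70), besides COX16. The COX16 call was lost with library size alone (0.86). With library size alone the split became 7 higher and 41 lower.

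**Figure D5:**
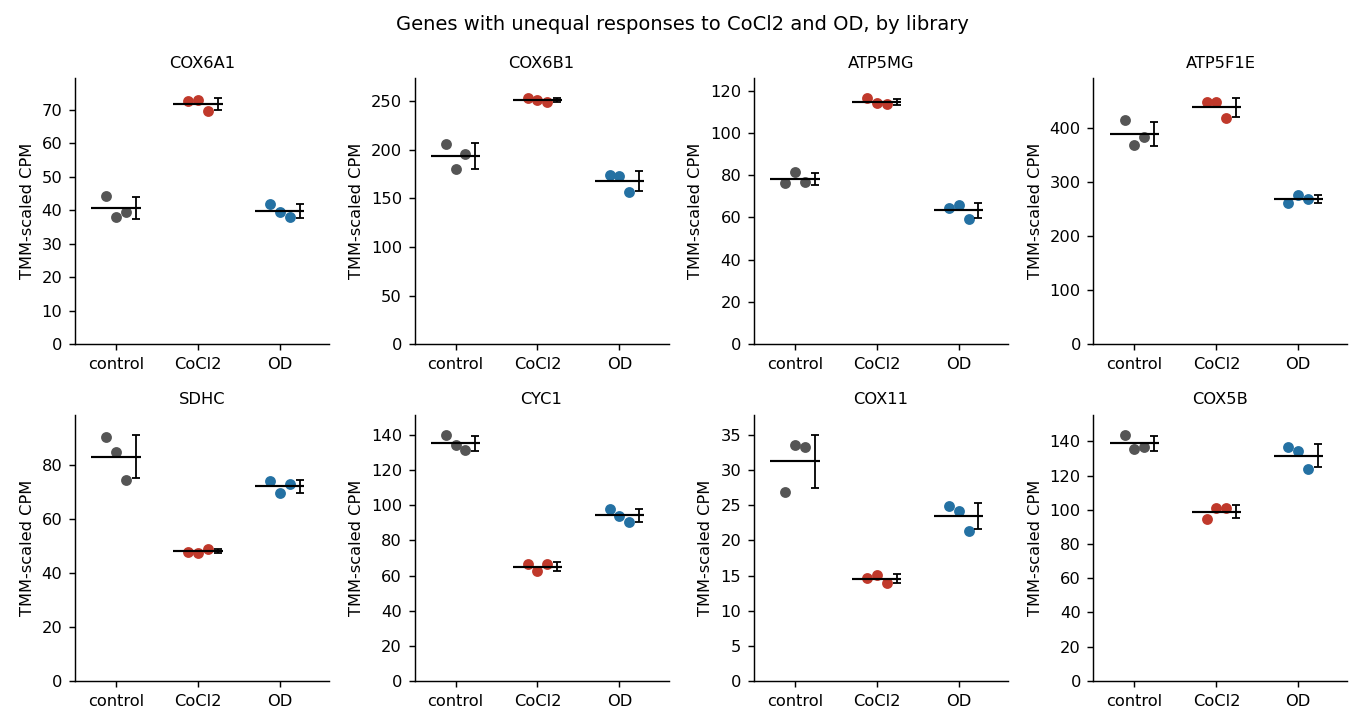
TMM-scaled CPM (y axis, from 0) of 8 genes in each of 9 libraries; points are libraries, lines means and bars SD (n = 3). COX6A1, COX6B1, ATP5MG and ATP5F1E are highest in the CoCl2 libraries, where with library size alone ATP5MG no longer passes the test against control and COX6B1 and ATP5F1E lie below it, and SDHC, CYC1, COX11 and COX5B are lowest there, while OD libraries lie below all control libraries for each of the 8 but COX6A1 and COX5B.

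Other genes linked to these complexes, for the most part assembly factors, were taken from a list of 37 genes, all tested. Under CoCl2, 14 were called lower and 4 higher, against 23.4% and 19.9% of all tested genes, and under OD 1 was called lower and 0 higher, against 4.16% and 9.09%. For complex II, SDHAF4 (-1.91) and SDHAF3 (-1.36) were called lower under CoCl2 and SDHAF2 (1.27), which helps to attach the flavin to SDHA, was called higher. For complex III, UQCC2 (-1.74), LYRM7 (-1.21), which escorts the Rieske protein, and UQCC3 (-1.15) were called lower, and HCCS (1.02), which joins heme to cytochrome c and c1, higher. For complex IV, PET117 (-2.15), TMEM177 (-1.88), COA3 (-1.66), CMC1 (-1.32), TACO1 (-1.27) and SURF1 (-1.08) were called lower, and COA6 (1.03) and the subunit NDUFA4 (1.14) higher. FASTK (-1.20), listed with complex IV but not given here as an assembly factor of it, was also called lower. For complex V, ATPAF1 (-1.43), which helps to assemble the F1 head, and DMAC2L (-1.05) were called lower. The gene called lower under OD was COA7 (-1.18), which rose by 0.43 under CoCl2. Scaled by library size alone, the genes named as higher under CoCl2 still rose but were not called, at 0.76 for SDHAF2, 0.51 for HCCS, 0.53 for COA6 and 0.63 for NDUFA4, and COA7 (-0.08) did not pass the test.

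NDUFA4, counted here with the list because its symbol falls outside the rule, was at 236, 223 and 207 CPM in control cells, 497, 493 and 476 under CoCl2 and 230, 223 and 220 under OD. It lay above every control library under CoCl2 and overlapped control under OD (0.02 ± 0.04, not passing the test).

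Of 10 transcriptional regulators of respiratory genes, 9 were tested. Under CoCl2, PPARGC1B, a coactivator of mitochondrial genes, was called lower (-2.16 ± 0.09), and GABPA and YY1 (1.18 ± 0.04) were called higher, the last pair falling short of the call with library size alone (0.94 and 0.67). PPARGC1B was at 33.8, 31.8 and 29.4 CPM in control cells, 6.16, 7.51 and 7.60 under CoCl2 and 33.4, 32.4 and 29.9 under OD. Of all tested genes, 23.4% were called lower and 19.9% higher. Under OD 7 of the 9, against 33.3% of all tested genes, fell without being called, among them NRF1 (-0.80), PPRC1 (-0.70) and TFAM (-0.54), a factor for mitochondrial DNA. PPARGC1A had 0 to 1 counts in every library and was not tested.

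Of 7 hypoxia-linked genes that bear on respiration, 6 were tested. PDK1, which keeps pyruvate out of the citric acid cycle, rose by 2.39 ± 0.07 under CoCl2 and 3.26 ± 0.06 under OD. BNIP3, a mitophagy receptor, rose by 3.77 and 3.98, and MXI1 by 1.70 and 2.05. The mitochondrial protease LONP1 rose by 0.46 and 0.53 without being called, the first turning to -0.04 with library size alone, and ISCU, a scaffold for iron-sulfur clusters, rose by 0.85 under CoCl2 and had 0.05 under OD, which did not pass the test. HIGD1A passed the test with neither agent against control. NDUFA4L2 had 2 to 12 counts and was not tested.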

How the data were processed

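Poly(A)-selected stranded mRNA of the 9 uCaco-2 cultures was sequenced with single-end reads. Per the labels and the study's methods, the authors checked reads with FastQC 0.11.9, trimmed them with cutadapt 2.10, mapped them on GRCh38.p13 with STAR 2.7.5b and made a count matrix on GENCODE genes; the methods call the replicates biological. What was deposited are whole-number counts per gene symbol without normalization. The counting tool, its strand setting and its treatment of reads that fit several genes are not given in the sources used here, so genes with near-identical copies or overlapping neighbours are uncertain. All 9 columns were used (0 unused).

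From the counts, edgeR 4.0.16 (R 4.3.3) computed TMM factors, kept 15944 symbols by its expression filter and fitted 1 mean per condition over 9 libraries with its robust quasi-likelihood test, adjusted by Benjamini-Hochberg. A call needed an adjusted p under 0.05 together with a log2 change past 1 either way. Shares were compared by a two-sided exact permutation test, with exact (Clopper-Pearson) 95% intervals, and a count of 0 was read as at most 3 counts. No molecular identifiers were used, so these intervals describe counting error alone. Genes were named where called, where highest or lowest of a complex with either agent, in isoform families, as SDH genes, CYCS or ATP5IF1, or where they failed the filter. Other genes given with values were chosen after their values were seen. Genes called were named from the lists of assembly factors, regulators and hypoxia-linked genes. The genes and lists were chosen with earlier results of these data known. Coordinates and shared exonic bases came from GENCODE release 44 (60 of 60 genes matched by symbol or synonym), promoter windows from RefSeq GRCh38.p14. Of these steps only the edgeR fit was tried on simulated counts, for CoCl2 against control. The simulated rises and falls were balanced, so TMM factors as unequal as those seen here were not tried. Replicates differed beyond counting noise (chi-square per degree of freedom 1.74 to 3.05), so none was counted as a duplicate. Alternatives were RLE factors, library size alone, no filter, at least 10 counts in every library, DESeq2 1.42.0, 6 libraries per comparison, a replicate block, each library left out, thinned counts, added pseudogene counts, glmTreat and the adjusted p alone.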

Additional observations from a re-analysis of the deposited data

Results flagged for a closer look

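Pseudogene symbols were outside the comparisons. Where they summed to at least 20 counts in every library of a treated group, those of 4 genes stood above all control libraries. The 7 ATP5MC1 pseudogene symbols had 2, 5 and 7 counts in control cells, 44, 33 and 39 with CoCl2 and 10, 8 and 9 with OD, a mean summed level of 0.248 CPM in control cells and 2.44 CPM with CoCl2. This was opposite to ATP5MC1 itself, and with these counts added the ATP5MC1 share of the 3 genes fell by 10.52 percentage points under CoCl2. The 41 CYCS pseudogene symbols went from 4.80 CPM in control cells to 14.2 CPM with CoCl2, and the 2 COX6A1 pseudogene symbols from 2.80 to 4.70 CPM. The 3 SDHA pseudogene symbols were at 16.2 CPM in control cells, 20.7 CPM with CoCl2 and 22.0 CPM with OD. Whether these reads came from the pseudogenes or from the parent genes was not tested.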

How the results depend on the processing

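With CoCl2 against control, calls higher (0) became 2 without a count filter, 1 with DESeq2 and 17 by the adjusted p alone, and calls lower (5) became 14 with library size alone, 4 with RLE, 28 by the adjusted p alone and 2 with glmTreat. The median of -0.22 became -0.17 with RLE size factors, -0.73 with library size alone and -0.28 without a filter, and ranged from -0.25 to -0.16 when each library was left out, the latter without control replicate 1. With OD against control, the adjusted p alone gave 2 higher and 37 lower, and all other alternatives gave 0. For CoCl2 against OD, calls higher (1) became 0 with library size alone, 3 without a filter, 2 with DESeq2 and 24 by the adjusted p alone, and calls lower (2) became 1 with RLE, 7 with library size alone, 15 by the adjusted p alone, 1 with glmTreat and 1 to 2 when each library was left out. Its median of 0.08 became 0.13 with RLE, -0.46 with library size alone, 0.017 without a filter, 0.029 with at least 10 counts in every library and 0.05 with pseudogene counts added, and ranged from 0.045 to 0.094 when each library was left out.

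With library size alone the sign turned from above to below 0 with CoCl2 against control for 14 of 20 genes, ATP5F1E (-0.33), ATP5MPL (-0.08), COX17 (-0.34), COX6C (-0.46), UQCRB (-0.38), COX4I1 (-0.27), COX6B1 (-0.13), COX7A2 (-0.23), COX7A2L (-0.18), COX7B (-0.35), SDHA (-0.13), SDHB (-0.39), SDHD (-0.45) and UQCRHL (-0.14). It turned the same way for CoCl2 against OD for 24 of 32 genes, among them ATP5IF1 (-0.50), ATP5MC2 (-0.52), COX4I1 (-0.26), COX7A2 (-0.28), COX7A2L (-0.46), COX7B (-0.33), COX7C (-0.42), SDHA (-0.40), SDHB (-0.10), SDHD (-0.22), UQCRH (-0.064), UQCRHL (-0.018) and UQCRQ (-0.43). With OD against control it turned the other way, from below to above 0, for COX6A1 (-0.03 to 0.0097). That setting lowers all CoCl2 libraries by their TMM factors. Values near 0 also turned elsewhere: for CoCl2 against OD, ATP5IF1 was -0.021 without a filter and -0.0092 with at least 10 counts, ATP5MC2 was -0.041 and -0.029 there and -0.019 to 0.047 when each library was left out, and SDHD under CoCl2 was -0.012 without a filter and -0.045 to 0.14 when each library was left out, below 0 without control replicate 1 or CoCl2 replicate 2. With OD, leaving out each library gave -0.079 to 0.049 for COX6A1, -0.012 to 0.050 for COX7A2 and -0.78 to 0.32 percentage points for the ATP5MC2 share, the latter above 0 without control replicate 1 or OD replicate 2. The cause was not tested. The fall of COX8A under OD did not pass the test without control replicate 1 (-0.10), control replicate 3 (-0.11) or OD replicate 3 (-0.09), with library size alone (-0.09) or with DESeq2 (-0.12), that of COX18 with library size alone (-0.21), with DESeq2 (-0.25), without a count filter (-0.25) or without control replicate 2 (-0.21), OD replicate 2 (-0.25) or OD replicate 3 (-0.20), and that of ATP5ME with library size alone (-0.18), with DESeq2 (-0.21) or without control replicate 1 (-0.16) or OD replicate 3 (-0.15).

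Replicate numbers did not pair the libraries (correlations of same-numbered deviations from -0.0049 to 0.038). With the replicate number as a block, the counts of calls were as without it (0 and 5 with CoCl2, 0 and 0 with OD, 1 and 2 for CoCl2 against OD) and the medians were -0.22, -0.27 and 0.08. COX16 and COX20, with fewer than 100 counts per library, had the largest standard errors.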
